A study of Bos taurus with 28 samples.

Results

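Genes of the mitochondrial carrier family and of the machinery that brings proteins into mitochondria were described in the liver of ketotic and healthy dairy cows. Members were every gene whose symbol in the array's annotation begins with SLC25A, TIMM, TOMM or CHCHD followed by a number, or is a UCP, VDAC, MTX, GRPEL, PMPC or PHB gene, SAMM50 or IMMT. The rule found 62 genes on 66 probes, of 8073 genes named on the array: 28 carriers and 34 genes of import and membrane organisation, called the import genes here. The 7 ketotic cows were multiparous Holsteins, found healthy on day 4 after calving and assigned at random to feed restriction, at 50% of their earlier intake until clinical ketosis or day 14 at the latest. The 7 healthy cows were multiparous Holsteins of the same examination and were not restricted. The restriction began on day 5 by the design text and on day 4 by the sample labels, and ketosis was brought on by underfeeding and had not arisen by itself. Liver RNA of each cow was set against a common RNA pooled from cattle tissues on 2 cDNA arrays with the dyes exchanged.

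A mitochondrion makes only a few of its own proteins, and nearly all others are made in the cytosol and imported. They pass the outer membrane through the TOM complex and are then taken into or across the inner membrane by TIM23 or TIM22, handed over in the space between by small TIM chaperones, or folded into the outer membrane as barrels by SAM. Presequences are cut off in the matrix, and the MICOS complex shapes the inner membrane into cristae. The carriers of the SLC25 family are themselves imported proteins of the inner membrane, each moving its own metabolites, such as ADP and ATP, phosphate, citrate, amino acids or acylcarnitines. In the liver of a fasting animal, fatty acids reach the matrix as acylcarnitines and leave it largely as ketone bodies.

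Every value is a log2 ratio of liver over the common RNA, centred on each array's median and averaged over a cow's 2 arrays, so it gives a gene relative to that pool and is not an abundance. The direction was not stated with the values and is called likely: hepatocyte markers lay above genes of other tissues on 28 of 28 arrays, by a median of 5.85 (lowest 2.64). The labelled tissue was borne out by 14 measured hepatocyte markers, of which 2 rose and none fell in ketotic cows (limma), and whose per-cow median was 5.45 to 7.18 in ketotic cows and 3.09 to 7.34 in healthy cows. Healthy cow 7 held the lowest value, and the others were at 5.24 or above; this cow's correlation with the other 13 cows across genes was 0.36 to 0.46. Empty spots, with ratios at the ceiling counted as empty, made up 16.5% ± 4.49 of spots in ketotic cows and 11.9% ± 2.80 in healthy cows (SD, n = 7 each). The spread of the ratios, as a median absolute deviation, was 1.40 ± 0.185 in ketotic cows and 1.12 ± 0.128 in healthy cows (SD, n = 7 each). Among other cell types, 3 of 9 measured macrophage markers and 1 of 6 bile duct markers fell and none rose. Beside these and the hepatocyte counts, 12.4% of all genes tested were called lower and 0.920% higher. The macrophage median was 0.92 to 2.71 in ketotic cows and 0.56 to 3.08 in healthy cows. The bile duct median was -1.94 to -1.37 in ketotic cows and -1.53 to -0.52 in healthy cows. Their part in the results below was not tested, apart from a fit that took each cow's empty spots as a covariate and a fit that left out healthy cow 7.

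More of the import genes than of the carriers fell in ketotic cows. Of 31 import genes tested, 9 fell in ketotic cows, 22 did not pass the test and none rose (limma, 0 higher at an unadjusted p below 0.05 also). Of 24 carriers tested, 1 fell, 1 rose and 22 did not pass. Over all 6958 genes tested the share called lower was 12.4% and the share called higher was 0.920%, so the import share of 29.0% lies above the background and the carrier share of 4.17% below it. By role, 2 of 6 TOMM genes, 0 of 5 small TIM chaperones, 1 of 6 inner membrane translocase genes and 0 of 1 peptidase genes fell. The other calls were 2 of 5 channel and barrel assembly genes and 4 of 8 genes of cristae and prohibitins. The import share thus rests largely on these last groups. The median log2 difference, ketotic minus healthy, was -0.51 over the import genes, 0.07 over the carriers and -0.18 over all genes. In RNA from whole liver, fewer cells of a type and less RNA per cell cannot be told apart.

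The order of these medians was the same under every alternative setting, while the sign of the carrier median was not. In 28 of 28 alternative settings the import median lay below that of all genes and the carrier median above it. Settings that change only the centring shift all genes by nearly the same amount, so they could not change this order. With arrays scaled to one spread, the import median was -0.16 and the carrier median 0.13 relative to all genes. Import genes minus carriers came to -0.58, and to between -0.60 and -0.27 under the alternatives. Relative to all genes, the import median was lower by a log2 difference of -0.38 to -0.16 and the carrier median higher by 0.05 to 0.32 across these settings. The 0.05 came from the fit with the empty spots as a covariate, where the carrier median itself was -0.09. The carrier median itself was -0.32 on the values as deposited, with all genes at -0.58, and 0.20 with arrays centred on the probes that had a value everywhere, with all genes at -0.05. No test was run of the import genes against the carriers.

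**Figure D1:**
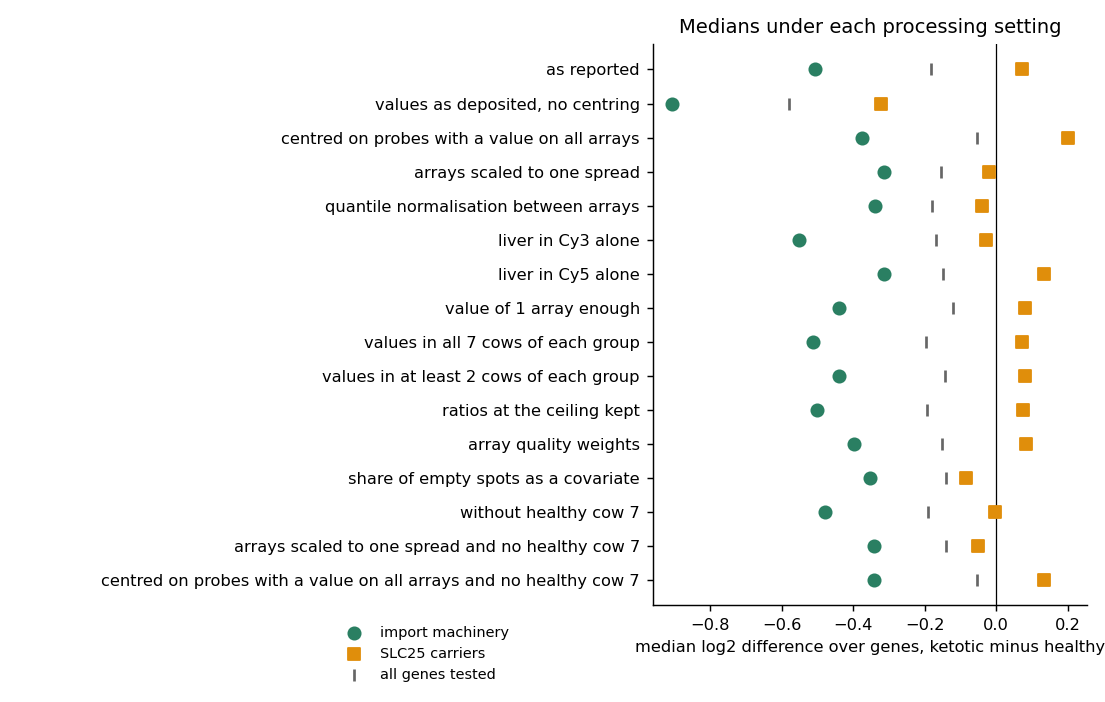
Median log2 difference, ketotic minus healthy, over the import genes (green circles), the carriers (orange squares) and all genes tested (grey bars), by processing setting from top to bottom. The green circle lies left of the grey bar and the orange square right of it in every setting drawn.

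Single cows showed a difference between the groups for the import genes, while for the carriers the groups overlapped. With each gene centred over the cows, the median over the import genes was -0.44 to -0.01 in ketotic cows, with a median cow at -0.13, and 0.09 to 0.39 in healthy cows, with a median cow at 0.24. The groups did not overlap. The median over the carriers was -0.17 to 0.19 in ketotic cows and -0.33 to 0.41 in healthy cows, which overlap over the whole ketotic range. For the carriers the median cow was at -0.09 in the ketotic and -0.07 in the healthy group. The median over all genes was -0.31 to 0.01 in ketotic cows and 0.07 to 0.14 in healthy cows and did not overlap either. Import genes below and carriers above all genes did not hold in every ketotic cow. In ketotic cow 1 the import median was -0.0089, with all genes at -0.0227. In ketotic cows 3 and 7 the carrier medians were -0.0906 and -0.1522, with all genes at -0.0418 and -0.1497. Import minus carrier median was below 0 in each of the 7 ketotic cows, from -0.27 to -0.04, and ran from -0.17 to 0.72 in healthy cows, of which the 2 lowest, at -0.17 and -0.13, lay inside the ketotic range.

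**Figure D2:**
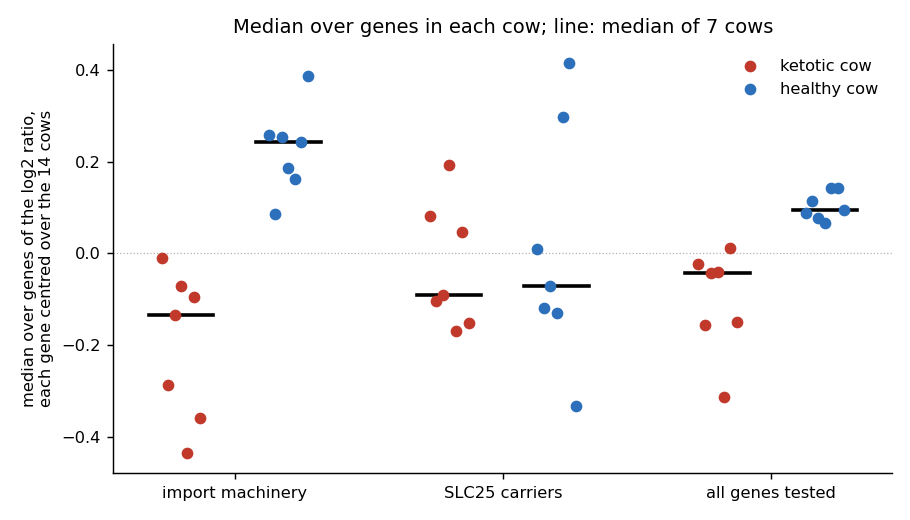
Median over genes of the log2 ratio in each cow, each gene first centred over the 14 cows, for the import genes, the carriers and all genes tested; red points are ketotic cows, blue points healthy cows and lines the median of 7 cows. For the import genes every ketotic cow lies below 0 and every healthy cow above it, and for the carriers the groups overlap.

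At the outer membrane entry gate, 2 of 6 tested TOMM genes fell, or 33.3%, against 12.4% of all genes. TOMM6, a small subunit that stabilises the TOM complex, had ratios of -1.62, -0.78 and -0.57 (lowest, median and highest cow) in ketotic cows and -0.24, 0.07 and 0.46 in healthy cows. Every ketotic cow was below every healthy cow. The log2 difference was -1.04 (SE 0.175, 2.05-fold lower, adjusted p = 0.00314). TOMM7, another small subunit, had -2.41, -1.63 and -1.22 in ketotic cows and -1.48, -0.97 and -0.59 in healthy cows. Healthy cow 7 was the lowest healthy cow for TOMM7, and without it the groups did not overlap. The difference was -0.69 (SE 0.186, 1.61-fold lower, adjusted p = 0.0245). The call was lost without healthy cow 6, by an adjusted p of 0.0501, and with arrays scaled to one spread, by one of 0.204.

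TOMM20, the receptor for presequences, had ratios of -1.98, -1.26 and -0.86 in ketotic cows and -1.20, -0.72 and -0.20 in healthy cows. The groups overlapped, with 4 of 7 ketotic cows below all healthy cows, and the difference of -0.57 did not pass (SE 0.200, adjusted p = 0.0703). It passed without healthy cow 7, at -0.65 with an adjusted p of 0.0296, and without ketotic cow 3 or 6, at adjusted p of 0.0471 and 0.0482. With arrays scaled to one spread the TOMM20 difference was -0.32 with an adjusted p of 0.355, and it passed in 5 of 28 alternatives in all. TOMM5, also a small subunit, differed by -0.51 and did not pass (adjusted p = 0.282). TOMM40, the pore itself, and its relative TOMM40L are among the genes given by range below.

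Among the channels and the assembly of barrel proteins, 2 of 5 tested genes fell, or 40.0%, against 12.4% of all genes. VDAC3, one of 3 voltage-dependent channels through which metabolites cross the outer membrane, had ratios of -1.50, -1.01 and -0.47 in ketotic cows and -0.42, 0.02 and 0.36 in healthy cows. The groups did not overlap, though the highest ketotic and the lowest healthy cow were close. The difference was -0.996 (SE 0.174, 1.99-fold lower, adjusted p = 0.00361). MTX2, a metaxin that works with the SAM complex, had -2.38, -1.03 and -0.54 in ketotic cows and -0.81, -0.30 and -0.01 in healthy cows. For MTX2, 6 of 7 ketotic cows were below all healthy cows, and the difference was -0.84 (SE 0.233, 1.79-fold lower, adjusted p = 0.0279). The call was lost without healthy cow 1, 2 or 3, at adjusted p of 0.0502 to 0.0561.

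VDAC1 and VDAC2, the other channels, did not pass, and their differences from VDAC3 were not tested. VDAC1, held to be the main isoform in most tissues, had ratios of -0.75, -0.23 and -0.14 in ketotic cows and -0.59, -0.47 and -0.19 in healthy cows, which overlap. Its difference was 0.03 (SE 0.137, 95% interval -0.26 to 0.32, adjusted p = 0.922), an interval that does not reach the difference of VDAC3. VDAC2 differed by -0.52 and did not pass (adjusted p = 0.0961). Healthy cow 7 was its lowest value of all 14 cows, and without that cow the groups did not overlap and VDAC2 fell by 0.68 with an adjusted p of 0.00397. The VDAC2 difference was -0.94 with liver in Cy3 alone (adjusted p = 0.00970), -0.09 with liver in Cy5 alone (adjusted p = 0.932) and -0.09 with arrays scaled to one spread (adjusted p = 0.887), so its size depended on dye and scaling. A cDNA probe can bind RNA of a close relative, so the 3 channels may not be fully separated.

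Between the membranes, none of the 5 tested TIM chaperones passed (limma, 1 lower at an unadjusted p below 0.05). These small proteins escort carriers and barrel proteins through the intermembrane space. TIMM13 differed by -0.54 (adjusted p = 0.0524) and passed without healthy cow 7, at -0.61 with an adjusted p of 0.0215, and without ketotic cow 6, at 0.0383. With arrays scaled to one spread the TIMM13 difference was -0.31 with an adjusted p of 0.254, and it passed in 7 of 28 alternatives in all. TIMM8B differed by -0.61 with values in 5 ketotic cows (adjusted p = 0.328). TIMM10, which pairs with TIMM9, went the other way by 0.62 without passing (adjusted p = 0.185): its ketotic cows lay between 0.35 and 0.71, above the healthy median of 0.26, and healthy cow 7 was at -1.90. Without healthy cow 7 the TIMM10 difference was 0.31 with an adjusted p of 0.0783.

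At the inner membrane, 1 of 6 tested genes fell, or 16.7%, near the 12.4% of all genes. All 6 differences were negative, as were 4673 of the 6958 over all genes. TIMM23, the channel subunit of the translocase for proteins with a presequence, had the smallest p of all members. Its ratios were -1.93, -0.91 and -0.77 in ketotic cows and -0.24, 0.07 and 0.35 in healthy cows. The groups did not overlap, and the lowest healthy cow stood well above the highest ketotic cow. The difference was -1.11 (SE 0.181, 2.16-fold lower, adjusted p = 0.00302).

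TIMM50, the receptor that hands preproteins to TIMM23, had no overlap either, at -1.34, -0.85 and -0.75 in ketotic cows and -0.73, -0.31 and 1.55 in healthy cows. Its difference of -0.85 did not pass (SE 0.279, adjusted p = 0.0555). The highest healthy value was that of healthy cow 7, and without it the difference was smaller and passed, at -0.58 with an adjusted p of 0.0137; it also passed without healthy cow 2, at an adjusted p of 0.0426, and in 8 of 28 alternatives in all. GRPEL2, an exchange factor for the matrix HSP70 that pulls proteins in, differed by -0.55 (adjusted p = 0.0946, and 0.0442 without ketotic cow 4) and TIMM17B, a partner of TIMM23, by -0.25 (adjusted p = 0.196). PMPCA, a subunit of the peptidase that removes presequences, was read by 2 probes that differed in sign, 1.53 with an adjusted p of 0.0807 and -0.18 with an adjusted p of 0.554.

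The genes of cristae, the twin-cysteine CHCHD proteins and prohibitin formed the group with the most calls, 4 of 8, where 12.4% of all genes were called lower. All 8 differences were negative, against 4673 of 6958 over all genes. IMMT, the core of the MICOS complex at cristae junctions, had ratios of -2.53, -1.22 and -0.88 in ketotic cows and -0.55, -0.38 and -0.26 in healthy cows. The groups did not overlap, and ketotic cow 5 was far below the other ketotic cows. The difference was -0.93 (SE 0.212, 1.90-fold lower, adjusted p = 0.0120). CHCHD3, another MICOS subunit, had -2.42, -1.59 and -1.39 in ketotic cows and -1.44, -1.0 and -0.42 in healthy cows. The groups met at their edges, with 5 of 7 ketotic cows below all healthy cows, and the difference was -0.74 (SE 0.194, 1.67-fold lower, adjusted p = 0.0226). With arrays scaled to one spread CHCHD3 lost its call, at -0.43 with an adjusted p of 0.167.

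CHCHD2, a twin-cysteine protein found in the intermembrane space and known from human work to bind cytochrome c oxidase, had ratios of -1.81, -1.28 and -0.87 in ketotic cows and -0.83, -0.37 and 0.16 in healthy cows. The groups did not overlap, by a narrow gap. The difference was -0.87 (SE 0.186, 1.83-fold lower, adjusted p = 0.00920). PHB1, prohibitin, which forms rings in the inner membrane around its proteases, had -1.16, -0.48 and 0.07 in ketotic cows and -0.01, 0.47 and 0.75 in healthy cows. Of the ketotic cows, 5 of 7 were below all healthy cows, and the difference was -0.83 (SE 0.209, 1.77-fold lower, adjusted p = 0.0193). CHCHD10, a relative of CHCHD2, differed by -0.35 and CHCHD1, a protein of the mitochondrial ribosome, by -0.37, with adjusted p of 0.287 and 0.263, and neither passed. CHCHD10 passed in 3 of 28 alternatives, at -0.75 with an adjusted p of 0.0325 where arrays were scaled to one spread.

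**Figure D3:**
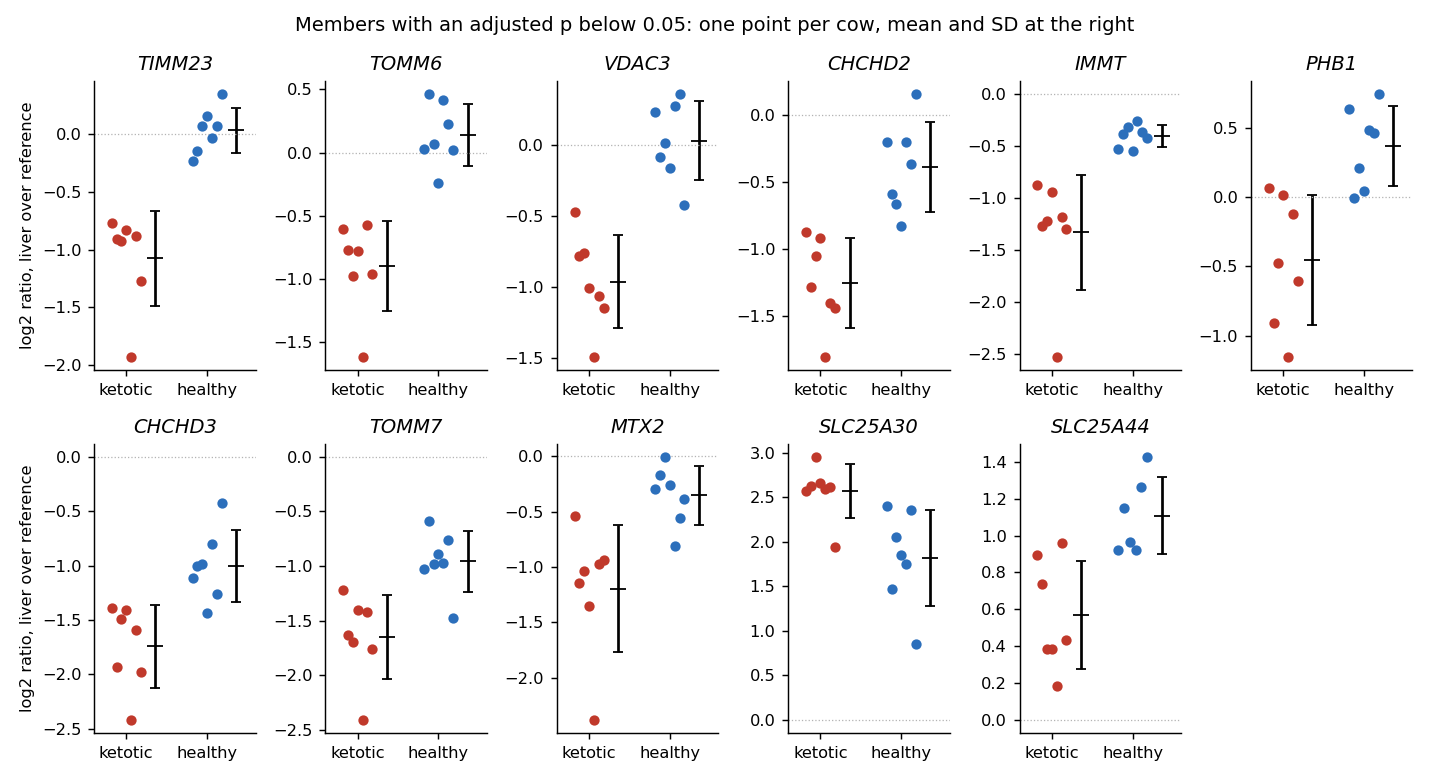
Log2 ratio of liver over the common RNA in each cow for the 11 members with an adjusted p below 0.05, ketotic cows in red at the left and healthy cows in blue at the right of each panel, with mean and SD; each panel has its own vertical axis. TIMM23, TOMM6, VDAC3, CHCHD2 and IMMT show no overlap, and SLC25A30 is the only panel with ketotic cows on top.

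Of the 49 members with values in all 14 cows, 6 had every ketotic cow below every healthy cow, against 5.86% of 5240 genes with values in all 14 cows. The 6 were CHCHD2, IMMT, TIMM23, TIMM50, TOMM6 and VDAC3, all import genes, of 28 import genes that could be so compared, and none of 21 carriers was among them. No member had every ketotic cow above every healthy cow, against 0.344% of genes. For each of the 10 members that fell, 7 of 7 ketotic cows lay below the healthy mean. This follows closely from the call itself, and members that did not pass, such as CHCHD10, SLC25A3 and SLC25A6, had it too.

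The carriers of acylcarnitine, citrate and aspartate did not pass. SLC25A20, which carries acylcarnitines into the matrix, had ratios of 1.68, 2.14 and 2.68 in ketotic cows and -0.26, 2.60 and 3.21 in healthy cows. Healthy cow 7 held the value below 0 and the next healthy cow was at 2.06. The difference was -0.03 (SE 0.419, 95% interval -0.92 to 0.86, adjusted p = 0.972), and without healthy cow 7 it was -0.45 with an adjusted p of 0.158. With that cow left out and arrays scaled to one spread, a combination chosen after seeing the data, SLC25A20 fell by 0.86 with an adjusted p of 0.0124, the one alternative of 28 in which it passed. Its value thus depended on that cow and on the scaling.

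SLC25A1, the carrier that exports citrate from the matrix, had ratios of 0.63, 0.94 and 1.08 in ketotic cows and -0.83, 0.71 and 1.41 in healthy cows, with healthy cow 7 lowest. The ketotic cows lay inside the healthy range. The difference was 0.29 (SE 0.263, adjusted p = 0.516), and 0.05 without healthy cow 7. SLC25A13, the aspartate and glutamate carrier citrin, had 1.62, 1.69 and 2.21 in ketotic cows and 0.68, 2.15 and 2.34 in healthy cows. Here too the ketotic cows lay inside the healthy range, the difference was 0.09 (SE 0.274, adjusted p = 0.874), and the sign changed with the processing.

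A carrier of branched-chain amino acids, SLC25A44, was the one carrier that fell. Its ratios were 0.18, 0.43 and 0.96 in 7 ketotic cows and 0.92, 1.06 and 1.43 in the 6 healthy cows with a value, healthy cow 7 having none. Of the ketotic cows 6 of 7 were below all healthy cows. The difference was -0.54 (SE 0.165, 1.45-fold lower, adjusted p = 0.0432). This call was lost with 10 of the 14 cows left out in turn, with adjusted p up to 0.0950.

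The one member that rose was SLC25A30, a relative of the uncoupling proteins first described in kidney. Its ratios were 1.94, 2.61 and 2.95 in ketotic cows and 0.85, 1.85 and 2.40 in healthy cows. Of the ketotic cows 6 of 7 were above all healthy cows and 1, ketotic cow 7, was below several of them. The difference was 0.75 (SE 0.228, 1.68-fold higher, adjusted p = 0.0422). This call was also lost with 10 of the 14 cows left out in turn, and with arrays scaled to one spread the difference was 0.33 with an adjusted p of 0.499. That scaling left 9 members lower and none higher (limma, 0 members higher at an unadjusted p below 0.05), against 7.40% of all genes called lower. UCP2, the uncoupling protein known from many tissues, was not among the members found.

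Carriers of nucleotides and phosphate gave no call among 7 tested (limma, 1 lower at an unadjusted p below 0.05). The phosphate carrier SLC25A3, which feeds ATP synthase, differed by -0.32 (adjusted p = 0.303), and the ADP and ATP carrier SLC25A6 by -0.26 (adjusted p = 0.271). SLC25A17, a member of the family that sits in peroxisomes, differed by -0.42 (adjusted p = 0.113). The glycine carrier SLC25A38, which serves haem synthesis, differed by -0.43 (adjusted p = 0.153), and SLC25A16 by -0.31 (adjusted p = 0.256). All 5 kept a negative sign under the 28 alternatives. SLC25A16 passed in 3 of these, SLC25A38 in 2, and SLC25A3, SLC25A6 and SLC25A17 in 1 each. Without healthy cow 7 SLC25A16 passed at -0.42 with an adjusted p of 0.0441.

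The remaining 24 tested members are given by their range, because the sign of each changed under at least one alternative. They were 14 carriers with differences of -0.57 to 0.32 and 10 import genes with differences of -0.20 to 0.48, and the smallest adjusted p among them was 0.233. The carriers among them include SLC25A4 for ADP and ATP, SLC25A11 for oxoglutarate, SLC25A28 for iron, SLC25A42 for coenzyme A, SLC25A51 for NAD and UCP1. SLC25A48 and SLC25A51 were each read by 2 probes that differed in sign, none of which passed. In all, 27 of 55 tested members kept one sign under every alternative, 20 import genes and 7 carriers. The values as deposited lower nearly all differences, with a median over all genes of -0.58 against -0.18, so small positive differences turn negative there. Positive differences were held by 15 of 24 carriers and 6 of 31 import genes, so these counts partly follow from the medians given above. The matching count over all genes is not given. Another 7 members had values in too few cows for a test: SAMM50, TIMM22, TOMM34, SLC25A12, SLC25A14, SLC25A15 and UCP3.

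**Figure D4:**
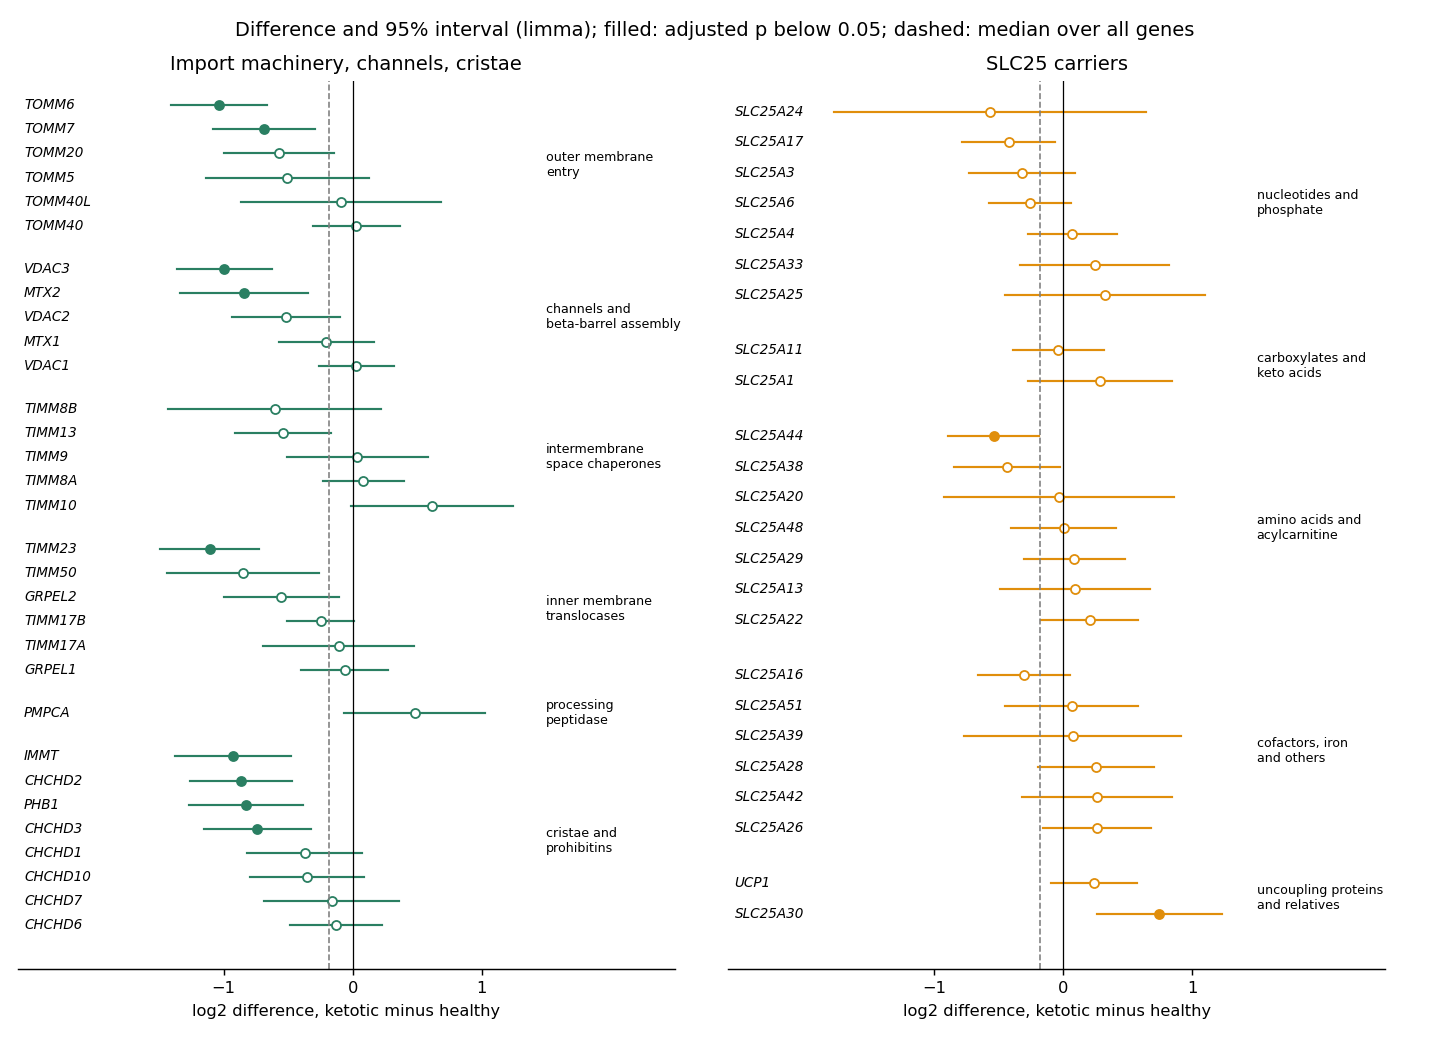
Log2 difference, ketotic minus healthy, with limma's 95% interval for the 31 tested import genes (left) and 24 tested carriers (right), grouped by role; filled points have an adjusted p below 0.05 and the dashed line is the median over all genes, -0.18. The filled points of the import genes all lie left of the dashed line, and most carrier intervals cross 0.

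Both sets also differed in where they stood against the common RNA. The mean ratio over both groups was below 0 for 23 of 31 import genes and above 0 for 19 of 24 carriers. Over all genes, 17.6% of the 3940 genes below 0 were called lower, against 5.67% of the 3018 genes above 0. Of the 23 import genes below 0, 9 were called lower, which is 39.1%, and of the 8 above 0 none was. The mean ratio includes the ketotic cows, so a fall itself lowers it and this split partly follows from the calls. TIMM23, TOMM6, VDAC3 and PHB1, all called lower, had healthy means above 0, at 0.03, 0.14, 0.03 and 0.37. Of the 5 carriers below 0 none was called lower, and of the 19 above 0 one was. The median difference of genes below 0 was -0.57 for the import genes, -0.32 for the carriers and -0.32 for all genes. For genes above 0 it was -0.10 for the import genes, 0.09 for the carriers and -0.01 for all genes. The part of this standing in the contrast between both sets was not tested.

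**Figure D5:**
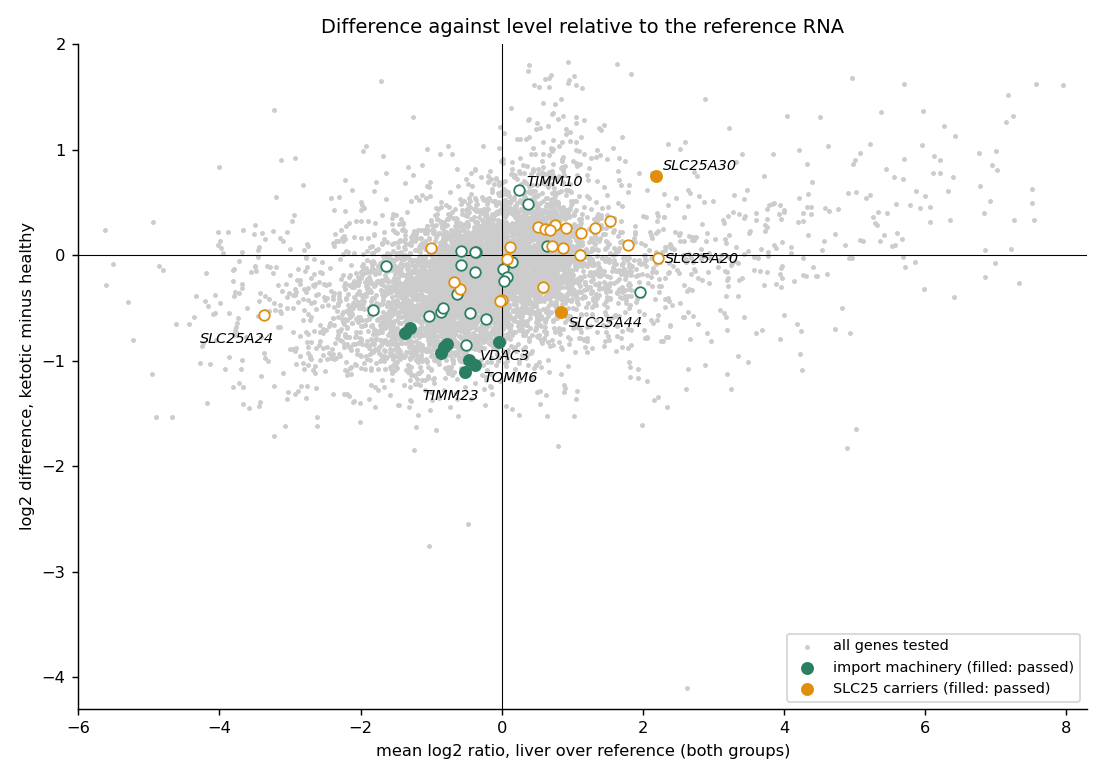
Log2 difference, ketotic minus healthy, against the mean log2 ratio of liver over the common RNA for all genes tested (grey), import genes (green) and carriers (orange); filled points passed. The filled green points all lie left of 0 on the horizontal axis and below -0.6 on the vertical axis, and most carriers lie right of 0.

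A pair of fits bears on healthy cow 7 and on the empty spots. Without healthy cow 7, all 11 called members were called again and 5 more passed, all of them lower: SLC25A16, TIMM13, TIMM50, TOMM20 and VDAC2. That gave 13 of 31 import genes and 2 of 24 carriers lower, with 18.4% of all genes called lower and 1.50% higher. With the percentage of empty spots in each cow as a covariate, 3 members were called lower, TIMM23, TOMM6 and VDAC3, against 2.30% of all genes. Their differences were then -0.85, -0.87 and -0.94, with adjusted p of 0.0363, 0.0398 and 0.0387. In this fit the carrier median was -0.09 and the import median -0.35, with all genes at -0.14. Relative to all genes the carrier median was then 0.05, against 0.25 without the covariate. The import median was -0.21 relative to all genes, against -0.32 without the covariate.

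The arrays of each dye were also fitted alone. With liver in Cy3 alone 9 import genes were called lower, against 8.73% of all genes, among them TIMM50 and VDAC2 but not MTX2 (adjusted p = 0.0514) or TOMM7 (adjusted p = 0.208), and with liver in Cy5 alone none was, against 0.144% of all genes (limma, 12 import genes lower at an unadjusted p below 0.05). For the members with the smallest p, the differences by dye were, for TIMM23 -1.08 and -1.14, for TOMM6 -1.17 and -0.91 and for VDAC3 -1.03 and -0.96 with liver in Cy3 and in Cy5.

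Other genes of mitochondrial import, folding and transport were read from a list of 42. Of the 31 tested, 7 fell, or 22.6%, and 1 rose, or 3.23%, against 12.4% and 0.920% of all genes. Their median was -0.31, against -0.18 over all genes. Those that fell include OXA1L, which inserts proteins into the inner membrane from the matrix (-0.76, SE 0.172, adjusted p = 0.0118), and AFG3L2, a protease of the inner membrane (-0.74, SE 0.176, adjusted p = 0.0148). MPC2, a subunit of the pyruvate carrier outside the SLC25 family, differed by -0.81 (SE 0.195, adjusted p = 0.0152), and MICOS13, a partner of IMMT, by -0.71 (SE 0.185, adjusted p = 0.0209). ROMO1, a small protein of the inner membrane, differed by -0.69 (SE 0.185, adjusted p = 0.0237), and STOML2, which binds prohibitins, by -0.63 (SE 0.173, adjusted p = 0.0266). For each of these 6 genes all 7 ketotic cows lay below the healthy mean. They also did for genes of the list that did not pass, such as MCU and YME1L1. The one that rose was HTRA2, a protease of the intermembrane space, named after its value was seen (0.50, SE 0.154, adjusted p = 0.0428).

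For comparison, the respiratory chain with ATP synthase had 27 of its 67 tested genes lower, or 40.3%, against 12.4% of all genes. None of them was higher (limma, none higher at an unadjusted p below 0.05 either), and the median was -0.58. Of 63 genes of mitochondrial ribosomal proteins, 16 fell, or 25.4%, and none rose (limma, 1 higher at an unadjusted p below 0.05), with a median of -0.40. The import median of -0.51 lay between both, but nearer 0 than both in several settings, such as arrays scaled to one spread, at -0.31 against -0.34 for the ribosomal proteins and -0.55 for the respiratory chain. The carrier median of 0.07 lay above all of them, and was -0.02 under that scaling.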

How the data were processed

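Each spot of the deposited table holds 1 log2 ratio of its dyes; the authors' image analysis and normalisation are not given in the sources consulted. Array medians ran from -1.05 to 2.16. Values at a ceiling of 16.61 (6245) and empty cells (103458) were read as missing. The sign was turned where liver carried Cy3, adjacent spots were averaged to 13824 probes, and each array was centred on its median. Both arrays had to hold a value for a cow to count, and 5 cows per group for a gene to be tested, which left 6958 genes; probes of a gene were averaged. Symbols came from the platform annotation, which can be old, matched to the ARS-UCD2.0 gene table for all 62 members. Groups were compared with limma 3.58.1 in R 4.3.3 (lmFit, eBayes, two-sided, Benjamini-Hochberg over all genes, threshold 0.05); the fit was tested on simulated data. Errors are moderated standard errors. Nothing states whether the cows were handled in batches, and the number of arrays limits the precision. Cow numbers only name cows.

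The members, gene lists and tests were chosen with earlier results of these data known. Named genes were members with an adjusted p below 0.05, the largest rise, SLC25A20, SLC25A1, SLC25A13, UCP2, VDAC1 and TOMM20 where measured, and up to 6 passing partner genes by smallest p; other members are accounted for by group. Alternatives covered scaling, dyes, filters, weights, a covariate and each cow left out. Besides those markers named with the results, lists for muscle (9 of 15 genes measured, 0 passing at this threshold), adipocytes (1 of 6, 0 passing) and blood (1 of 5, 0 passing) were read.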

Additional observations from a re-analysis of the deposited data

Results flagged for a closer look

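In 16 of 114 groups of values, 1 cow stood far from the others of its group by Dixon's criterion, where chance gives about 1 in 20, or 5.7. Healthy cow 7 was that cow in 7 and ketotic cow 5 in 4. In healthy cow 7 the log2 ratios were -1.09 for CHCHD1 (nearest other healthy cow -0.53), 1.01 for SLC25A17 (0.26), -0.26 for SLC25A20 (2.06), 0.0124 for SLC25A24 (-2.80), 0.47 for SLC25A3 (-0.40), -1.90 for TIMM10 (-0.06) and 1.55 for TIMM50 (0.01). In ketotic cow 5 they were -2.53 for IMMT (nearest other ketotic cow -1.30), -1.94 for TIMM13 (-1.25), -1.34 for TIMM50 (-0.99) and -1.62 for TOMM6 (-0.98), each below the other ketotic cows. This cow also had the largest share of empty spots, 25.0% of spots. The import genes' calls without ketotic cow 5 were 9 of 31 lower, against 9.85% of all genes. Without healthy cow 7 the import genes' calls were 13, against 18.4% of all genes.

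Ketotic cow 7 had 1.94 for SLC25A30 (nearest other ketotic cow 2.57) and -1.76 for SLC25A39 (0.24), and ketotic cow 4 had 1.84 for SLC25A48 (1.17). Healthy cow 6 had -1.09 for CHCHD7 (nearest other healthy cow -0.37) and 0.55 for SLC25A26 (0.38). SLC25A30 was called higher in spite of the low ketotic cow.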

How the results depend on the processing

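Beside 865 genes called lower with arrays centred on their median, the counts were 2466 on the values as deposited, 493 with centring on probes present on all arrays (80.0% of the calls, against 93.1%), 515 with arrays scaled to one spread, 537 with quantile normalisation, 11 with liver in Cy5 alone and 160 with the empty spots as covariate. Members called lower, 10, became 23 as deposited, 3 with the covariate and 0 with Cy5 alone; import genes, 9, became 17, 3 and 0. The 1 carrier called lower became 6 as deposited (none higher) and 0 with common centring (1 higher), either dye alone or 1 array enough. It was also 0 with values in all 7 cows (1 higher), in at least 2 cows, or the covariate. At an unadjusted p below 0.05 limma gave 1 to 4 carriers lower in these settings with 0. The filter on all 7 cows left SLC25A44 untested, as it had values in 6 healthy cows, so its call could not be kept there. The import median of -0.51 was -0.91 as deposited, -0.31 with one spread, -0.34 with quantiles, -0.31 with Cy5 alone and -0.35 with the covariate. In the same order, the carrier median was -0.32, -0.02, -0.04, 0.13 and -0.09. Of 2 combinations chosen after seeing the data, one spread without healthy cow 7 gave 1302 genes and 4 carriers lower and an import median of -0.34, and common centring without that cow 0 carriers lower (limma, 2 at an unadjusted p below 0.05) and -0.34.

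Leaving out each cow gave 616 to 1265 genes lower, 8 to 15 members, 8 to 13 import genes and 0 to 2 carriers, with import medians of -0.52 to -0.36 and carrier medians of -0.0025 to 0.136; the highest counts came without healthy cow 7. Signs turned for SLC25A1 (-0.11 as deposited, -0.0939 with one spread and no healthy cow 7), SLC25A13 (-0.31 as deposited, -0.24 with one spread, -0.14 with quantiles, -0.11 with Cy3 alone, -0.0505 with array weights, -0.12 with the covariate, -0.40 with one spread and no healthy cow 7, -0.0871 to 0.190 leaving out cows), SLC25A20 (0.10 with common centring, 0.11 with Cy5 alone, -0.45 to 0.13 leaving out cows) and VDAC1 (-0.37 as deposited, -0.0865 with Cy5 alone, -0.0100 to 0.0911 leaving out cows). The causes were not tested. TIMM23, TOMM6 and VDAC3 were called in 27 of 28 alternatives each, all but Cy5 alone; SLC25A30 lost its call in 19 of 28 and SLC25A44 in 17 of 27. MTX2 lost it in 7 of 28 (adjusted p up to 0.282, 3 of these with a cow left out), TOMM7 in 6 (up to 0.208, 1 with a cow left out) and CHCHD3 in 5 (up to 0.203, none with a cow left out). No paired analysis was possible because the cow numbers pair no cows across the groups.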
